A study of Mus musculus with 4 samples.

Results

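The arrays of mice that carried 1 of the study's hits each were compared: sucrose diet with an intact Glo1 gene on one side, and loss of 1 Glo1 allele on a starch diet on the other. They are 2 of the 4 arrays of the series and are identified by their labels. The diet-only array held prefrontal cortex RNA of wild-type mice fed sucrose, and the genotype-only array held prefrontal cortex RNA of Glo1 heterozygous mice fed starch. The other arrays, used here for orientation, held RNA of wild-type mice fed starch, which the labels call the control, and of Glo1 heterozygous mice fed sucrose. All 4 groups were 3-month-old mice labelled B6J that ate their diet for about 70 days from weaning at postnatal day 21. Total RNA of 3 mice was mixed in each group and 200 ng of the mixture was labelled with Cy3, so each array gives 1 value for the mixture and the spread between mice was not measured. Every value below is therefore a description of single arrays without a p-value, and the 2 arrays differ in diet, genotype, mice and position on the slide, which cannot be told apart. The labels give neither the sex of the mice nor the construct that removed the Glo1 allele.

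Glo1 encodes glyoxalase 1, the enzyme that, together with glutathione, begins the clearance of methylglyoxal, a reactive by-product of glycolysis. Methylglyoxal attaches to proteins and forms advanced glycation end products, which are recognised by receptors such as Ager. Sugar intake bears on the supply of such compounds and Glo1 on their removal, and the design of the series crosses these 2 factors.

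Signals are given as multiples of the array's 75th percentile of non-control spots, called the level below. The difference of a gene is the log2 level on the wild-type sucrose array minus that on the heterozygous starch array, so that a negative value means a lower signal with sucrose alone than with heterozygosity alone. Of several probes of a gene the brightest was used, and levels are compared between arrays and never between genes. The 75th percentiles lay between 1780 and 1929 intensity units and 77.6% to 80.2% of the spots were well above background. No spot was saturated. Of 56605 probes, 42094 were well above background on all 4 arrays and stood for 20358 named genes. Of 42094 probes, 506 (1.2%) differed by 2-fold or more, the threshold used throughout, with 170 higher on the wild-type sucrose array (0.404%) and 336 lower (0.798%). Among genes 263 of 20358 passed it (1.29%), of which 87 were higher on the wild-type sucrose array (0.427% of all genes) and 176 were lower (0.865%). The median difference over all genes was 0.02, and 55.5% of genes had a positive difference. With a model-based background correction (normexp) 107 genes passed, 18 higher and 89 lower, so that the share of higher genes among them moved from 33.1% to 16.8%.

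The direction of the imbalance depended on the signal filter. Without a filter 1414 genes passed, 818 higher and 596 lower (57.9% higher), which includes signals near background. Of the 2 arrays, sucrose alone detected 2054 probes that the other did not, 216 of them at a bound of 2-fold or more, and heterozygosity alone detected 498, of which 211 had such a bound. Above the median signal of the probes 12934 genes were measured, and 52 of them passed 2-fold (0.402%), of which 5 were higher (0.0387%) and 47 were lower (0.363%). Of the 506 probes past the threshold, 59.3% lay in the dimmest quartile of signals and 2.4% in the brightest. Probes printed repeatedly gave a median SD of the difference between repeat spots of 0.06 over 299 probes, 291 of them in the brightest quartile, and the scanner software's own error of a difference was 0.2 to 0.27 for the 50 genes named here. Both cover the spot alone and neither mice nor labelling. Of the 176 lower genes, 45 had further probes, which were all of the same sign in 36 genes and all past 2-fold in 20. Of the 87 higher genes, 16 had further probes, all of the same sign in 12 and all past 2-fold in 4.

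**Figure D1:**
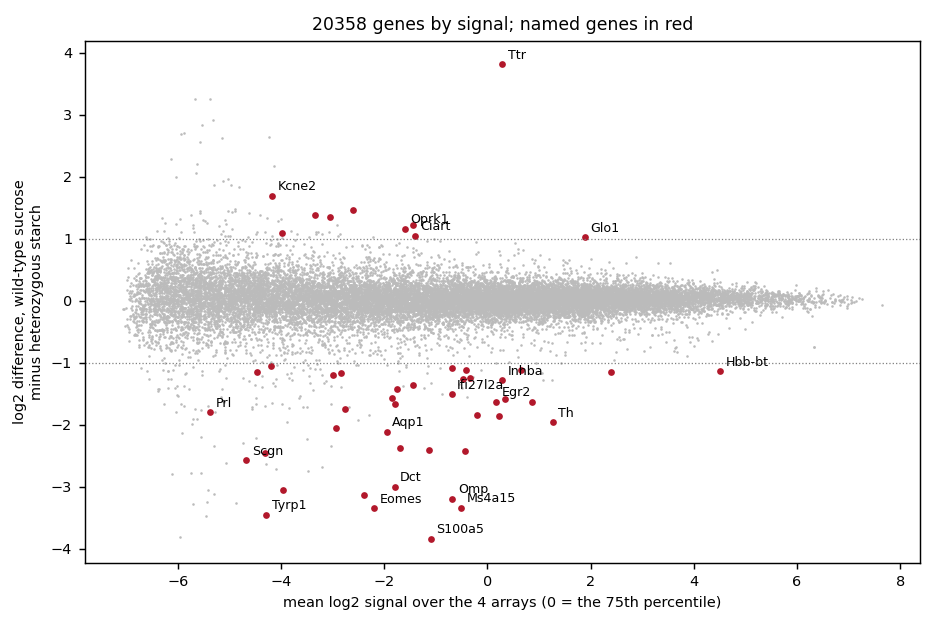
The difference between the wild-type sucrose array and the heterozygous starch array (log2, vertical axis) is plotted against the mean log2 signal over the 4 arrays (horizontal axis, 0 is the 75th percentile) for 20358 genes. Each point is 1 gene on 1 array a side, named genes are in red, and dotted lines mark 2-fold. At signals above 0, Ttr and Glo1 are above the upper line and several named genes, among them Th and Hbb-bt, are below the lower one.

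Glo1 was first examined as a check on the labels. Its level was 4.04 with neither hit, 5.53 with sucrose alone, 2.74 with heterozygosity alone and 3.04 with both. Both heterozygous arrays were below both wild-type arrays, and the 2 arrays compared here held the highest and the lowest of the 4 values. The difference was 1.02, and the 3 Glo1 probes on chromosome 17 gave 1.02, 1.03 and 1.04 (the brightest lies at positions 30729951 to 30730010 of build mm9). Against the wild-type starch array the heterozygous starch array differed by -0.56 and the wild-type sucrose array by 0.45, so neither side alone reached 2-fold. These 2 values share the wild-type starch array. With quantile normalization the difference was 0.99, just under the threshold. Within 1 Mb of Glo1, 24 other genes were measured, with a median difference of 0.11 and a range from -1.28 for Mdga1 to 0.81 for Gm8437. Mdga1 was the 1 neighbour past 2-fold.

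The partners of Glo1 and the genes of sugar metabolism showed small differences by comparison. Of 19 measured genes of glyoxalase and carbonyl detoxification, 12 were higher and 7 lower on the wild-type sucrose array, with a median of 0.06, and Glo1 was the 1 member past 2-fold. Hagh, which encodes glyoxalase 2 and completes the pathway, had levels of 8.36 with sucrose alone and 7.58 with heterozygosity alone, a difference of 0.14. Park7 (difference 0.14), Akr1b3, the aldose reductase gene (0.09), and Gclc, which encodes the catalytic subunit of the first enzyme of glutathione synthesis (0.14), were as close. Apart from Glo1 the list ran from -0.14 for Aldh1a1 to 0.14. Sugar transport and glycolysis genes had a median of 0.04, with 20 of 28 higher and none past 2-fold. The widest differences in that list were -0.65 for Pfkfb3, a regulator of glycolytic rate with levels of 1.69 and 2.65, and 0.43 for Pfkl, a phosphofructokinase subunit with levels of 1.76 and 1.3. Khk, the ketohexokinase that starts the breakdown of fructose, differed by 0.19, and Slc2a5, a fructose transporter, by -0.01. Cholesterol and fatty acid synthesis genes were higher in 19 of 22 cases with a median of 0.11, and no member passed 2-fold. The 93 genes of the respiratory chain and ATP synthase lay between -0.14 and 0.24 with a median of 0.04, and 71 were higher. The 79 cytosolic ribosomal protein genes had a median of 0.01 and the 12 control genes one of 0.03.

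Receptors and ligands of advanced glycation products were measured for 12 of 14 genes, of which 8 were lower with a median of -0.10. Ager itself had levels of 0.769, 0.576, 0.627 and 0.554 in the order wild-type starch, wild-type sucrose, heterozygous starch and heterozygous sucrose, a difference of -0.12. That order of arrays is kept wherever 4 levels follow. The 3 members past 2-fold are known chiefly from myeloid cells. S100a9 and S100a8, which form the dimer calprotectin, had differences of -1.36 and -1.20, with levels of 0.227 against 0.58 and 0.0782 against 0.18 on the arrays compared. Lgals3, which encodes galectin-3, had levels of 0.143, 0.0669, 0.149 and 0.269 and a difference of -1.16. S100a8 and Lgals3 were under 2-fold with normexp, and so was Lgals3 when its probes were averaged. Msr1, a scavenger receptor, was well above background with sucrose alone and not with heterozygosity alone, and was at least 3.34-fold higher on the former array. Such a bound sets the bright value against the faintest detected probe of the dim array, or against the dim value itself where that is larger.

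Several of the widest differences of bright genes belonged to genes known from the olfactory system. All 11 olfactory bulb genes on the list were lower on the wild-type sucrose array, with a median of -1.86 and 8 members past 2-fold. Of the 11, 7 were above the median signal, whereas Eomes, Tbx21 and Scgn were below it. Eomes and Tbx21, transcription factors of mitral and tufted cells, had levels of 0.403, 0.0449, 0.458 and 0.277 and of 0.238, 0.0552, 0.482 and 0.202. Their differences were -3.35 and -3.13, that is 10.2-fold and 8.73-fold lower with sucrose alone, and -2.50 and -2.47 with normexp. Th, the dopamine-synthesis enzyme made by periglomerular cells of the bulb and by midbrain neurons, had levels of 4.29, 0.971, 3.77 and 2.15 and a difference of -1.96. Th's second probe gave -2.20. Scgn (-2.57, and -1.17 with normexp), Doc2g (-2.42), Sp8 (-1.86), Nmb (-1.64) and Cdhr1 (-1.58), a cadherin of mitral cells, were past 2-fold as well. Dlx1, Dlx5 and Dlx2, homeobox genes of inhibitory neurons and their precursors, differed by -0.89, -0.87 and -0.60.

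The wild-type sucrose array was the lowest of the 4 for all 11 of these genes, which held for 21.2% of all genes. This count includes the difference described here. Against the wild-type starch array the list's median was -1.92 on the wild-type sucrose array and -0.04 on the heterozygous starch array, 2 values that share the wild-type starch array. The heterozygous sucrose array lay between, with a list median 1.15 above the wild-type sucrose array and 0.73 below the heterozygous starch array. The summed levels of the 11 genes were 15.1, 4.65, 14.6 and 9.15 in the usual order. In RNA from whole tissue, fewer cells of a type and less RNA per cell cannot be told apart, and the share of olfactory tissue in each dissected pool was not measured.

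Some genes outside the list that the naming rule picked as lower with sucrose alone are described next, while others it picked, Aqp1, Dct and Mlana, had another order of arrays and follow further on. S100a5, a calcium-binding protein gene known from olfactory sensory neurons, had levels of 1.71, 0.0612, 0.876 and 0.518 and was 14.3-fold lower with sucrose alone (difference -3.84). Omp, the olfactory marker protein, had levels of 1.98, 0.108, 0.984 and 0.721 and a difference of -3.19. For both, the heterozygous starch array was itself lower than the wild-type starch array, by -0.96 and -1.01. Ms4a15 had levels of 1.3, 0.149, 1.51 and 0.841, and its probes gave -3.34 and -3.32. Vipr2, a receptor of vasoactive intestinal peptide, and Shisa3 had differences of -2.40 and -2.38. Vipr2's brightest probes gave -2.40 and -2.67 and its dimmest -0.40. Cpa6, Zar1 and Nppa, the last encoding atrial natriuretic peptide, passed 2-fold with each of their probes, at -2.06, -1.75 and -1.57 for the brightest. The non-coding 2900073C17Rik differed by -1.67. All of these were lowest on the wild-type sucrose array, which their choice as lower there than on the heterozygous starch array fixed in part. With normexp S100a5 gave -3.12.

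Trh, the precursor of thyrotropin-releasing hormone, had levels of 1.98, 0.329, 1.18 and 0.732, a difference of -1.84. It was the 1 member past 2-fold of 8 hypothalamic genes, whose median was -0.16 with 5 lower (-0.98 over the 2 genes above the median signal), and Oxt (-0.21), Avp (-0.37) and Pmch (0.43) were closer. Calb2, the calretinin gene of cortical and bulb interneurons, had levels of 0.436, 0.144, 0.384 and 0.321 and gave -1.42 with each of its 2 probes. The other interneuron genes had mixed signs, and the list of 16 had a median of -0.01. Pvalb, the parvalbumin gene of fast-spiking interneurons, had levels of 5.54, 6.93, 5.25 and 5.33 and a difference of 0.40, and Sst differed by 0.23. Gad1, which makes the GABA-synthesising enzyme, was lower with sucrose alone (levels 9.62 and 13.6, difference -0.50), as was Crh (-0.80).

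**Figure D2:**
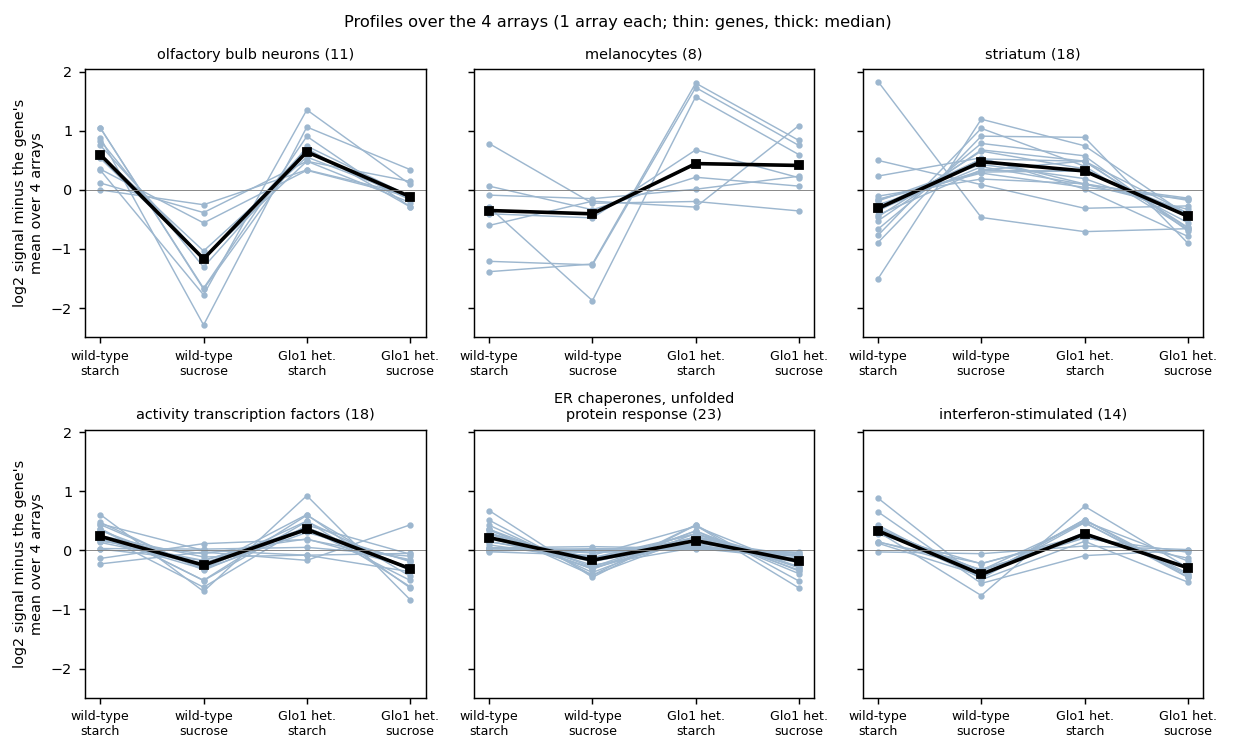
For 6 gene lists, the log2 signal of each gene relative to its own mean over the 4 arrays (vertical axis) is plotted by array (horizontal axis, 1 array each), with thin lines for genes and a thick line for the list's median. Olfactory bulb genes are lowest on the wild-type sucrose array, striatal genes are high on both arrays compared, and the activity, ER chaperone and interferon lists are low on both sucrose arrays.

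Genes of other cells that border or fill the tissue also differed. Red blood cell genes were lower on the wild-type sucrose array in 7 of 7 cases, with a median of -1.11. The wild-type sucrose array was the lowest of the 4 for each, against 21.2% of all genes. This count includes the difference described here. Hbb-bt, a beta-globin gene, had levels of 35.6, 13.9, 30.7 and 17.5, a difference of -1.14. Hbb-b2 (-1.15), Hbb-b1 (-1.11) and Alas2, the haem synthesis enzyme of erythroid cells (-1.26), were past 2-fold, and Hba-a1 and Hba-a2, near-identical copies whose probes may share transcripts, were both at -0.74. The summed levels were 277.4, 134.6, 234.8 and 152. Ppbp, a chemokine precursor of platelets, had dim levels of 0.0659, 0.0224, 0.123 and 0.0349 and a difference of -2.45 (-1.47 with normexp), while the other 5 platelet genes lay between -0.52 and 0.29 around a list median of -0.30.

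Several melanocyte genes were high on both heterozygous arrays. Against the wild-type starch array, which both values share, the list's median was 0.70 with heterozygosity alone and 0.75 with both hits. Dct, an enzyme of melanin synthesis, had levels of 0.124, 0.119, 0.954 and 0.482 and a difference of -3.00. Mlana, a melanosome protein gene, had levels of 0.0246, 0.0269, 0.225 and 0.115 and gave -3.06 and -3.55 with its 2 probes. Tyrp1 (-3.45) and Pmel (-1.15), which also serve the melanosome, had the same order, with both heterozygous arrays above both wild-type arrays. For the brightest probe of these 4 genes the heterozygous starch array had the highest level. Dct's second probe had another order, with levels of 0.255, 0.108, 0.137 and 0.115 and the wild-type starch array highest. It gave -0.34, and the mean of both probes was -1.67. With normexp Mlana gave -2.08 and Tyrp1 -2.03, and Pmel was under 2-fold. The remaining members were closer to 0, at -0.55 for Mitf, -0.16 for Slc24a5, -0.03 for Tyr and 0.10 for Oca2, and the median of the 8 measured genes was -0.85 (-0.58 with normexp, -0.55 over genes above the median signal). Slc45a2, a transporter of pigment cells, was well above background on the heterozygous starch array and not on the wild-type sucrose array, at least 3.11-fold higher. Both heterozygous arrays lay above both wild-type arrays for 6 of the 8 genes, against 13.7% of all genes. This count includes the difference described here. Against the wild-type starch array, 300 genes passed 2-fold on the wild-type sucrose array (1.47%), 99 higher (0.486%) and 201 lower (0.987%), and 166 on the heterozygous starch array (0.815%), 70 higher (0.344%) and 96 lower (0.472%). The genes of the direct comparison were sorted by which array departed by 2-fold from wild-type starch in the direction that widens the difference. Of the 176 lower genes, 40 (22.7%) did so through a higher heterozygous starch array, as Dct, Mlana and Pmel did, 96 (54.5%) through a lower wild-type sucrose array, 3 through both and 37 through neither. Among the 47 lower genes with signals above the median these counts were 1, 35, 0 and 11. In 4 of the 176, Omp and Prl among them, both arrays departed by 2-fold the same way, and they are counted by the array that widens the difference.

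Choroid plexus genes were higher with sucrose alone in 11 of 13 measured cases, with a median of 0.42 that was 0.21 with normexp and 0.07 over genes above the median signal. They supplied the highest of the bright genes. Ttr, which encodes transthyretin, the thyroid hormone carrier secreted by the choroid plexus, had levels of 0.259, 1.42, 0.101 and 58.7. Its difference was 3.81, a 14-fold higher signal, and 3.06 with its second probe. Kcne2 (1.69), Folr1 (1.46) and Krt18 (1.09) passed 2-fold as well, each at a level under 0.1 on both arrays compared. All 3 were under 2-fold with normexp, at 0.71 for Kcne2, 0.83 for Folr1 and 0.45 for Krt18. Aqp1, the water channel of the choroid plexus epithelium, ran the other way, with levels of 0.274, 0.0634, 0.274 and 0.946 and a difference of -2.11. Calml4 and Slc4a5 were well above background with sucrose alone and not with heterozygosity alone, at least 2.78-fold and 1.61-fold higher. The heterozygous sucrose array was the highest of the 4 for all 13 genes, against 21.8% of all genes, and the summed levels were 17.1, 18.4, 16.5 and 106.2. Lct, the lactase gene, followed that order too, with levels of 0.173, 0.364, 0.156 and 1.87 and a difference of 1.22. Ependymal and motile cilia genes, measured for 9 of 12, had a median of -0.03 and none past 2-fold.

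Striatal genes were somewhat higher with sucrose alone, with 16 of 18 higher, a median of 0.24 and none past 2-fold. The differences ran from -0.16 for Syndig1l to 0.64 for Gpr6, an orphan receptor gene with levels of 0.121, 0.424, 0.273 and 0.13. Adora2a, the adenosine receptor of striatopallidal neurons, had levels of 0.0861, 0.299, 0.295 and 0.0853, a difference of 0.02. Drd1, the dopamine receptor of striatonigral neurons, had levels of 0.72, 1.97, 1.71 and 0.706, a difference of 0.21. Tac1, the substance P precursor, had levels of 4.71, 8.68, 8.45 and 3.87, a difference of 0.04. Relative to the wild-type starch array, which both values share, the medians were 0.74 on the wild-type sucrose array and 0.53 on the heterozygous starch array. The heterozygous sucrose array had list medians of -0.86 relative to wild-type sucrose and -0.79 relative to heterozygous starch. The summed levels were 47.8, 75.6, 69 and 43.1. The part of striatal tissue in the pools was not tested.

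Cortical and glial markers were examined next. All 19 cortical excitatory neuron genes were well above background, but so were all 11 olfactory bulb genes, so detection does not identify the tissue. The cortical genes had a median difference of 0.09 and a range from -0.30 for Syt6 to 0.59 for Foxp2. Camk2a, the kinase of excitatory synapses, had levels of 37, 53.7, 50.6 and 54. Subunits of GABA and glutamate receptors had a median of 0.07 and lay between -0.42 for Gabra2 and 0.40 for Grm4. Astrocyte (median -0.10), oligodendrocyte (-0.11), microglia (0.03), brain endothelium (-0.04), pericyte and smooth muscle (-0.15) and meningeal fibroblast (-0.15) lists had no member past 2-fold. Gfap, the intermediate filament gene of astrocytes, had levels of 2.05, 1.29, 2.24 and 2.86, a difference of -0.80. Mobp and Mbp, genes of the myelin sheath, differed by -0.61 and -0.45. The 4 measured sex-linked genes, all from the Y chromosome, lay between -0.19 and 0.02, and Xist was not well above background on either array. Pituitary genes were dim: Prl, the prolactin gene, had levels of 0.0101, 0.0305, 0.106 and 0.0105 and a difference of -1.80 (-1.09 with normexp), and Cga was at least 3.19-fold higher on the heterozygous starch array. The other 5 of the 6 measured pituitary genes were higher with sucrose alone, none past 2-fold, and the median of 0.25 was 0.05 with normexp and 0 without a filter.

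**Figure D3:**
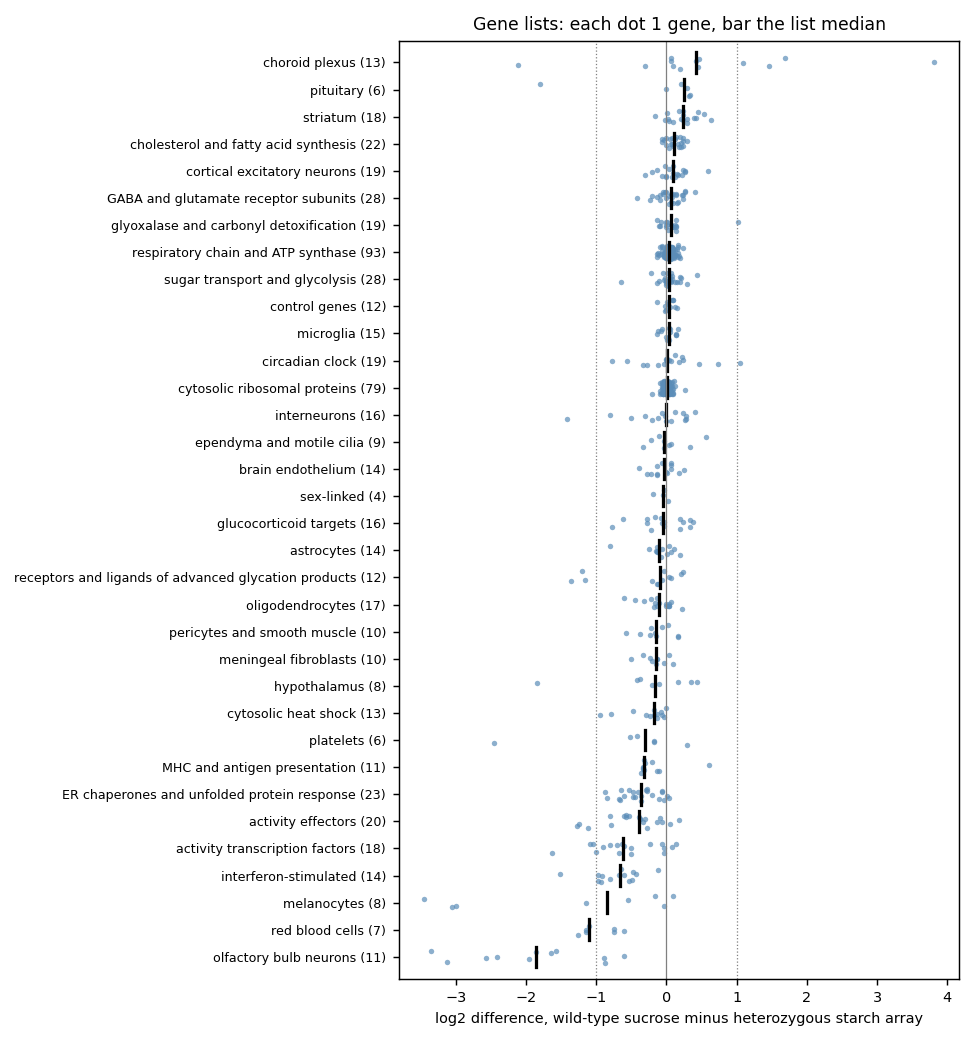
Each row is 1 gene list with its number of measured genes, each dot is 1 gene, and the black bar is the list's median of the log2 difference, wild-type sucrose minus heterozygous starch (horizontal axis; dotted lines at 2-fold; vertical scatter within a row has no meaning). The lists run from choroid plexus (0.42) at the top to olfactory bulb neurons (-1.86) at the bottom, and metabolic, ribosomal and control lists lie close to 0.

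Neuronal activity genes formed a lower group with moderate differences shared by most members. Neurons switch on a first set of transcription factors within minutes of firing, and these in turn control effectors that act at synapses or end the signal. Of 18 such transcription factors 16 were lower on the wild-type sucrose array, with a median of -0.62. Egr2, a zinc finger factor, had levels of 1.72, 0.695, 2.15 and 0.633, a difference of -1.63. Fosb, a partner in the AP-1 complex, had levels of 0.797, 0.439, 0.937 and 0.46 and gave -1.09. Atf3, a stress-responsive factor, was dim and gave -1.05. Fosb and Atf3 were under 2-fold with normexp, Fosb at -0.99. Fos (-0.91), Egr1 (-0.81), Npas4 (-0.71) and Nr4a1 (-0.67) had the same sign, whereas Jun (0.14), Fosl1 (0.08), Jund (-0.03) and Nr4a2 (-0.06) were near 0. The heterozygous starch array was the highest of the 4 for 14 of the 18, against 20.1% of all genes. Both sucrose arrays were below both starch arrays for 14 of 18, against 20.2% of all genes. Each of these counts includes the difference described here.

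The effectors were lower on the wild-type sucrose array in 18 of 20 genes, with a median of -0.39. Both sucrose arrays were below both starch arrays for 17 of them, against 20.2% of all genes. This count includes the difference described here. Inhba, a subunit of activin, had levels of 1.85, 0.773, 1.87 and 0.812 and a difference of -1.28. Dusp4 and Dusp5, phosphatases that switch off MAP kinases, had differences of -1.24 and -1.12, and their second probes gave -1.27 and -1.17. Arc, a synaptic regulator, had levels of 9.29, 6.74, 11.9 and 5.89 and a difference of -0.81. Bdnf, a neurotrophin, had levels of 1.75, 1.06, 1.83 and 1.41, a difference of -0.79. Plk2 (0.18) and Gadd45g (0.05) were the 2 higher members. The other pair of arrays, heterozygous sucrose minus wild-type starch, shares none with this comparison and had medians of -0.47 for the transcription factors and -0.35 for the effectors, and heterozygous sucrose minus wild-type sucrose had medians of -0.10 and -0.05. The palindromic cAMP response element, a site through which activity reaches many such genes, had an exact match in the 250 bases before the start of 0 of 14 transcription factor genes and 4 of 13 effector genes (30.8%; Dusp1, Btg2, Scg2 and Plk2) with a RefSeq promoter (build GRCm38.p6), against 1.77% of 27025 promoters. Those 4 effectors differed by -0.07, -0.09, -0.54 and 0.18. Both sucrose arrays were also below both starch arrays for 11 of 11 olfactory bulb and 7 of 7 red blood cell genes. This held for 20.2% of all genes, and the 2 lists had median differences of -1.86 and -1.11. Their part in the values of the activity genes, and of the ER chaperone, heat shock and interferon genes described next, was not tested.

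Endoplasmic reticulum chaperones and genes of the unfolded protein response, which fold and check secreted proteins, were lower in 21 of 23 cases with a median of -0.36 and none past 2-fold. Hspa5, the master chaperone BiP of this compartment, had levels of 25.9, 16.5, 25.8 and 16.1, a difference of -0.65. The values of each diet were close to each other and the pairs did not overlap. Sdf2l1 (-0.88), Derl3 (-0.85), Manf (-0.67), Pdia4 (-0.66), Creld2 (-0.61) and Pdia6 (-0.54) followed, while Canx, the membrane-bound lectin chaperone, was at 0.03 and Edem1 at 0.01. Both sucrose arrays lay below both starch arrays for 21 of the 23 genes, against 20.2% of all genes. This count includes the difference described here. Cytosolic heat shock genes were lower in 13 of 13 cases with a median of -0.18, led by Hspb1, a small heat shock protein gene (levels 7.41, 3.93, 7.58 and 4.15, difference -0.95). Hspa1b (-0.79) and Hspa1a (-0.47) are near-identical copies whose signals may mix.

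Promoters of 3 chaperone genes are shown because a sequence element known from this pathway recurs in the list. The ER stress response element was searched as CCAAT, any 9 bases and CCACG, on both strands, in the 250 bases before each start site (RefSeq, build GRCm38.p6). It was present in 9 of 21 chaperone promoters with an entry (42.9%) and in 0.13% of 27025 promoters. The windows below are 100 bases long and written 5′ to 3′ along the gene, with the match in capitals; the match of Creld2 is on the opposite strand.
Hspa5, chr2:34771984-34772083, plus strand: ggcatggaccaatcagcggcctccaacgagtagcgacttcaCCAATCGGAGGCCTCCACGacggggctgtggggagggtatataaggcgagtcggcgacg
Creld2, chr15:88819479-88819578, plus strand: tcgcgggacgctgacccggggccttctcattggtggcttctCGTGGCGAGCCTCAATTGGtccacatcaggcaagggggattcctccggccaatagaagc
Pdia6, chr12:17266450-17266549, plus strand: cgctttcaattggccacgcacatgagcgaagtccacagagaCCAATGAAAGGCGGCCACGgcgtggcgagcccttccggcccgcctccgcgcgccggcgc
Canx holds a match as well at a difference of 0.03, and Sdf2l1 and Manf hold none in this window at -0.88 and -0.67, so a match went with no fixed size of difference. A match is a description of letters and was not tested as a binding site.

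Interferon-stimulated genes, the antiviral set that responds to type I interferon, were lower in 14 of 14 cases with a median of -0.66. Ifi27l2a had levels of 0.766, 0.363, 1.03 and 0.505 and was past 2-fold at -1.51. Oas1a, an enzyme that senses double-stranded RNA, had levels of 0.379, 0.217, 0.429 and 0.228, a difference of -0.98. Usp18 (-0.97), Mx1 (-0.93), Oasl2 (-0.92), Ifit1 (-0.81), Isg15 (-0.65) and Irf7 (-0.61) followed, and Stat2, a transducer of the signal, was the closest to 0 at -0.12. The wild-type sucrose array was the lowest of the 4 for 10 of the 14, against 21.2% of all genes. Both sucrose arrays were below both starch arrays for 12, against 20.2% of all genes. Each of these counts includes the difference described here. The heterozygous sucrose array differed from the wild-type starch array by a median of -0.64. The MHC and antigen presentation genes were lower in 10 of 11 cases with a median of -0.32, among them H2-K1 (levels 6.12, 4.27, 5.42 and 4.52, difference -0.34) and Cd74 (-0.33). H2-Aa, a dim class II gene with levels of 0.0709, 0.0671, 0.044 and 0.0397, was the 1 higher member and had the widest difference of the list, 0.61. For these the wild-type starch array was itself above the heterozygous starch array, with a median of -0.35 for heterozygous starch minus wild-type starch. Microglia genes had a median difference of 0.03, with 10 of 15 higher.

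The core of the interferon-stimulated response element, searched as GAAA, any 2 bases and GAAA on both strands, was present in 7 of 10 promoters of these genes with an entry (70%) and in 3.46% of all 27025 promoters. It was also present in 3 of 13 activity effector promoters (23.1%) and 2 of 14 activity transcription factor promoters (14.3%), and in 0 of the ER chaperone, heat shock and clock promoters. This motif was added after the values had been seen. Windows of 3 promoters are given in the same form, where the capitals of Isg15 and Oas1a run through overlapping matches and those of Ifit1 lie on the opposite strand.
Isg15, chr4:156200836-156200935, minus strand: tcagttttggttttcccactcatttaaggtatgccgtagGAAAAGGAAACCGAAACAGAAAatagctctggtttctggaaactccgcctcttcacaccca
Oas1a, chr5:120907526-120907625, minus strand: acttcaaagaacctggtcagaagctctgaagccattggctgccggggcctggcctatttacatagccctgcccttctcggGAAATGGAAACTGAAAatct
Ifit1, chr19:34640749-34640848, plus strand: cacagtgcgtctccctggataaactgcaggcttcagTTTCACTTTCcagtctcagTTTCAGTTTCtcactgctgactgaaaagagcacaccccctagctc

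Clock genes gave one of the few bright genes on the higher side. Ciart, a repressor in the circadian clock, had levels of 0.272, 0.59, 0.285 and 0.443 and a difference of 1.05. Its second probe gave 0.42, and it was under 2-fold with normexp and with averaged probes. Nr1d1, the REV-ERB alpha repressor, and Dbp, an output factor, were also highest on the wild-type sucrose array, with differences of 0.73 (levels 0.678 against 0.408) and 0.47 (25.5 against 18.4). Nfil3, which opposes Dbp at the same sites, was lower at -0.77, and Per2 (-0.56) and Arntl (-0.27), a core activator, were lower too. The list of 19 had a median of 0.01. The time of day of dissection is not in the labels, and its part in these values was not tested. The Ciart promoter holds several matches to the E-box CACGTG, the site through which the core activators act, which was present in 5 of 17 clock promoters (29.4%) and in 6.86% of all promoters. Other lists held it too, at 23.1% for activity effectors, 22.2% for heat shock genes and 14.3% for both ER chaperones and activity transcription factors.
Ciart, chr3:95882256-95882355, minus strand: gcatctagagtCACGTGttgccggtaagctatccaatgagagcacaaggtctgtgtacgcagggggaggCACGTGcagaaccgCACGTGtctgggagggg
Glucocorticoid target genes, a further set that follows the day and handling, had a median of -0.05, with Cdkn1a at -0.77, Plin4 at -0.62 and Nfkbia at 0.38.

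Other genes higher with sucrose alone were few. Oprk1, the kappa opioid receptor, had levels of 0.184, 0.645, 0.289 and 0.342, a difference of 1.16, and its second probe gave 0.98. Padi6, a peptidylarginine deiminase family member, gave 1.38 and 1.30, and Pla2g4e, a phospholipase, gave 1.35 and 1.29. All 3 were highest on the wild-type sucrose array. With Ttr, Lct, Ciart and Glo1 these complete the genes past 2-fold that were either above the median signal or past 2-fold with each of 2 or more probes. Of the 87 higher genes, sorted as above, 46 (52.9%) passed 2-fold from wild-type starch through a higher wild-type sucrose array, 3 through a lower heterozygous starch array, 1 through both and 37 through neither.

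Whether the difference followed diet was described with the array pair left over, heterozygous sucrose minus wild-type starch, which differs in the same diet and the opposite genotype direction and shares no array. Of the 176 lower genes, 27 were lower by 2-fold in that pair too, 8 were higher by 2-fold, and 141 were under 2-fold. Of the 87 higher genes, 15 were higher, 1 was lower and 71 were under 2-fold. In that pair 406 of 20358 genes passed 2-fold (1.99%), 272 higher (1.34%) and 134 lower (0.658%). Egr2 (-1.44), Inhba (-1.19), Omp (-1.46), Hbb-bt (-1.03) and Ttr (7.83) kept their sign past 2-fold there, and Dct (1.96), Mlana (2.22) and Aqp1 (1.79) had the opposite one. Over all genes Pearson's r between the 2 differences was 0.19 and Spearman's rho 0.14, across genes that are not independent of each other.

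**Figure D4:**
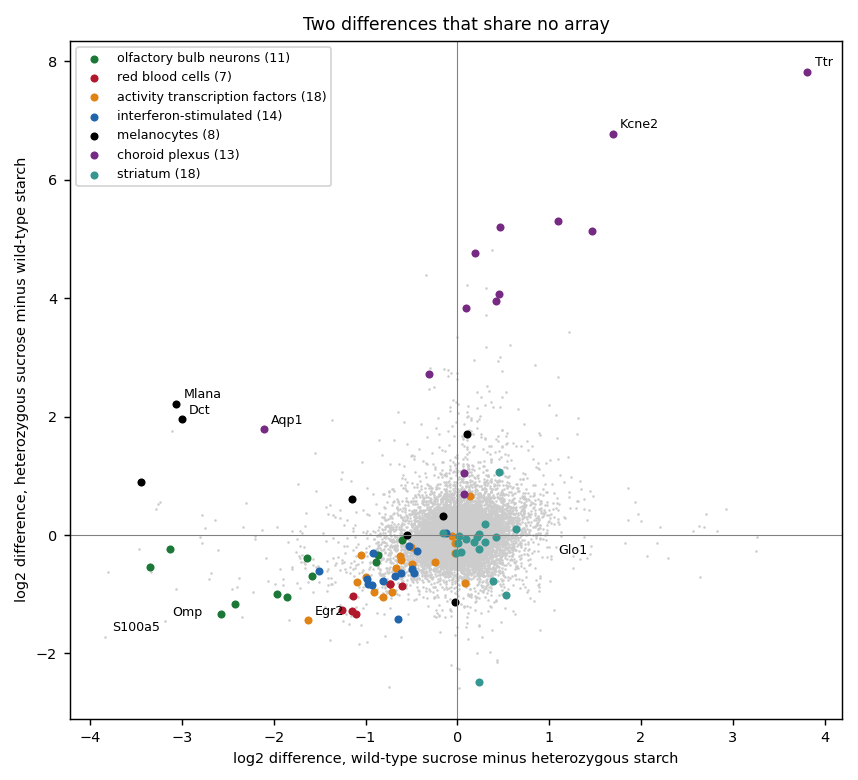
Each point is 1 of 20358 genes, with the difference between wild-type sucrose and heterozygous starch on the horizontal axis and that between heterozygous sucrose and wild-type starch on the vertical axis (both log2, 1 array a side), and 7 lists are in colour. Activity, interferon, red blood cell and olfactory bulb genes lie mostly at lower left, the melanocyte genes Mlana and Dct and the choroid plexus gene Aqp1 lie far to the upper left, and the choroid plexus genes lie high on the vertical axis, up to 7.83 for Ttr.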

How the data were processed

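The data were 4 one-colour Agilent arrays, 1 for each group, grouped by the sample labels. The deposited intensity values (processed signals) came from Agilent Feature Extraction 11.5.1.1, per the submitters' processing notes. Background subtraction and detrending within each array are recorded, per the file headers, and no step between arrays. The deposited value table held ratios, each equal to the processed signal over that array's 75th percentile within a relative spread of 9e-07.

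From these, log2 of signal over the 75th percentile of non-control spots was taken, without control spots or outlier-flagged spots, with spots of a probe averaged. Probes had to be well above background on all 4 arrays. Of the tested probes with a gene, 26416 were named through RefSeq accessions (GRCm38.p6), 7167 by symbol, 372 by older symbol and 1240 kept the file's name; 6899 had none and are not in gene counts. Coordinates of probes are those of the files (mm9). Differences of 2-fold or more (a log2 difference of 1) were counted, without a test. The counting steps were run on simulated data with planted shifts larger than the threshold and the same noise at every signal. That run cannot check the counts among dim probes.

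Named genes were Glo1, up to 12 highest and 12 lowest genes past 2-fold with signal above the median, up to 6 each way whose probes (at least 2) all passed, and members past 2-fold of 34 lists. The genes named beside these are list members given for their role. A result for 1 list member is not reported here. The arrays, members and lists were chosen with earlier results of these data known. Alternatives were normexp (limma 3.58.1, offset 50), median scaling, quantile normalization, the deposited ratios, 3 other signal filters, flagged spots kept and averaged probes. Leaving out a replicate was impossible with 1 array a group. Python 3.11.15 and R 4.3.3 were used.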

Additional observations from a re-analysis of the deposited data

How the results depend on the processing

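With 1 array a group, no setting has an error between arrays, and no paired analysis was possible because each group has 1 array and the labels give no replicate numbers. The depth of these arrays is limited by signal over background. Against 506 probes and 263 genes past 2-fold, normexp gave 177 and 107, no signal filter gave 3001 and 1414, and only signals above the median gave 67 and 52. The direction followed the filter: 33.1% of these genes were higher on the wild-type sucrose array in the main setting, 16.8% with normexp, 57.9% without a filter (818 higher, 596 lower; probes 1703 and 1298) and 9.6% above the median signal. The median differences of 28 of 34 lists kept their sign in all 9 alternative settings, and none of the 50 named genes turned its sign where it was measured. With normexp, medians moved to -0.54 (interferon-stimulated), -0.26 (MHC), -0.58 (melanocytes), 0.21 (choroid plexus), -1.61 (olfactory bulb) and 0.05 (pituitary). Above the median signal, fewer genes gave -0.57 (interferon-stimulated), -0.55 (melanocytes), -0.42 (platelets), 0.07 (choroid plexus), -1.64 (olfactory bulb), 0.11 (pituitary) and -0.98 (hypothalamus). Without a filter, melanocytes gave -1.15 and pituitary 0. With averaged probes, medians were -0.47 (activity effectors), -0.28 (ER chaperones), 0.04 (glucocorticoid targets), 0 (GABA and glutamate receptors), -0.12 (sex-linked), 0.03 (cortical excitatory neurons), -0.10 (endothelium) and 0.34 (choroid plexus). The cause was not tested. Among named genes still past 2-fold, normexp moved Eomes, Tbx21, Scgn, S100a5, Mlana, Tyrp1, Ppbp and Prl by over 1.5 times in fold, and averaged probes moved Dct. Of the 50 named genes 9 were under 2-fold with normexp, 3 with averaged probes (Ciart, Folr1 and Lgals3) and 1 (Glo1) with quantile normalization.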
